A study of Mus musculus with 9 samples.

Results

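The genes described are 10 of the matrix metalloproteinase (MMP) and tissue inhibitor of metalloproteinases (TIMP) genes of the mouse, *Mmp2*, *Mmp3*, *Mmp9*, *Mmp10*, *Mmp11*, *Mmp13*, *Mmp14*, *Timp1*, *Timp2* and *Timp3*, out of 54232 genes in a table of RNA-seq counts. They are 7 MMPs and 3 TIMPs, and each had 1 row in the table. The genes were chosen by their levels in embryonic fibroblasts set against those in pluripotent cells, so the fibroblast levels are given as a description without a test. The other genes of the family were listed separately and are described after the members.

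All cells carried the strain label C57 x CBA. Naïve mESCs, from a line with a GFP reporter driven by the distal *Oct4* promoter, were grown in serum/LIF medium on feeders. Primed mEpiSCs were converted from these naïve cells in F/A medium (Fgf2 and Activin A) and were also grown on feeders. Each state was sequenced at P5 and at P15 with 2 libraries per state and passage, and the labels do not say whether these came from separate cultures. A single library came from mouse embryonic fibroblasts (MEFs), the cell type whose mitomycin C-treated cells served as feeders, and whether the sequenced MEFs had been treated is not stated in the sources used here. Primed cells therefore descend from 1 reporter line, and whether feeders were removed before RNA extraction is not given in the sources used here. The 8 libraries of pluripotent cells had total counts of 14378051 to 20985136, and MEFs had 25646547. Levels are CPM, the counts of a gene relative to the size of its library, after TMM scaling over the 9 libraries. A count of 3, the limit that a count of 0 allows, equalled 0.128 CPM in MEFs and 0.148 to 0.221 CPM elsewhere, for counting error only.

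MMPs are zinc-dependent proteases that cleave collagens, laminins, fibronectin and other matrix proteins, and most are secreted as inactive proenzymes. TIMPs bind the active site of MMPs and block them, and fibroblasts are a well known source of both. *Mmp14* encodes a membrane-anchored MMP that activates pro-MMP2 on the cell surface with the help of TIMP2. *Mmp3*, *Mmp10* and *Mmp13* lie in a cluster of MMP genes on chromosome 9. In many cell types the promoters of such cluster genes respond to AP-1, the Fos and Jun transcription factors.

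The promoters of the 3 cluster members and of *Timp1* are shown. Together with *Mmp9*, the cluster members had the largest changes between states among the members, and *Timp1* lacks the exact letters searched. Each promoter is the RefSeq sequence on GRCm38.p6 from 250 bases before to 50 bases after the annotated start, on the + strand of the genome. Capitals mark a match to the AP-1 motif TGACTCA or its reverse complement TGAGTCA. Near matches were not searched, and the *Timp1* promoter holds one, tgagtaa, so it is not shown to lack an AP-1 site.
Mmp3, chr9:7445572-7445871: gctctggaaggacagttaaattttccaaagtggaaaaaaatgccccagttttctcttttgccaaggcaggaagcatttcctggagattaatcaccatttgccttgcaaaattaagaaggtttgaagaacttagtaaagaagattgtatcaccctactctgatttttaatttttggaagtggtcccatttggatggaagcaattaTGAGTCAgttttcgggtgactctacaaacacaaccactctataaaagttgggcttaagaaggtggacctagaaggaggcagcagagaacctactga
Mmp10, chr9:7502092-7502391: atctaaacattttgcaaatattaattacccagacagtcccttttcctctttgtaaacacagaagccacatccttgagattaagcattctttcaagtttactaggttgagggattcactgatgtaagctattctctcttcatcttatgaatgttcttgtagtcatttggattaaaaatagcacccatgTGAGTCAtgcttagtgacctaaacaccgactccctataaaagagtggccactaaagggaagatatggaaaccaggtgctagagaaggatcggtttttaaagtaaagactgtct
Mmp13, chr9:7272264-7272563: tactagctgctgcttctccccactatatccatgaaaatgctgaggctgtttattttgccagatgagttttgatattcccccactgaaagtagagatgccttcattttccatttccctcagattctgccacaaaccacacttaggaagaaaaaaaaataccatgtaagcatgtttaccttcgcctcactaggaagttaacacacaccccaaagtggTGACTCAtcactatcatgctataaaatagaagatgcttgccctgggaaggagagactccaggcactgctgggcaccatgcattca
Timp1, chrX:20869916-20870215: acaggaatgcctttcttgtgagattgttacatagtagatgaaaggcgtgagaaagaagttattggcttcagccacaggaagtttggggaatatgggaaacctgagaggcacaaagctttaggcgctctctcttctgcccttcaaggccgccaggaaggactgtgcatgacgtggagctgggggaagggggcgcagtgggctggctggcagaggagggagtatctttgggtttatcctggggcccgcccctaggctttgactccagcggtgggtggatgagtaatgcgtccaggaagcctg

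RefSeq promoters were at hand for 8 of the 10 members, and those of *Mmp2* and *Mmp9* were not used here. The AP-1 letters, searched on both strands, were found in *Mmp3*, *Mmp10* and *Mmp13*, at -46, -63 and -35 from the start. The same letters occur in 5.2% of 32851 promoters of this length. The TATA letters TATAAA or TTTATA were in the same 3 promoters, at -7, -29 and -16, and in 13.6% of all promoters. Among the other genes of the cluster, *Mmp1a*, *Mmp1b* and *Mmp7* also held both the AP-1 and the TATA letters. *Mmp8* and *Mmp20* held the TATA letters alone, and *Mmp12* and *Mmp27* held neither. The levels of these genes are given below. The GC box letters GGGCGG or CCGCCC were in *Mmp11*, *Mmp14*, *Timp1*, *Timp2* and *Timp3*, and in 35.7% of all promoters. The 3 motifs do not overlap in their letters, and a match describes the sequence without showing that a factor binds it.

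Primed cells had far more RNA of the secreted proteases *Mmp3*, *Mmp9*, *Mmp10* and *Mmp13* than naïve cells at both passages, and moderately more of *Mmp2*. Of the 10 members, 5 were called higher and 0 lower at P5, and 6 were called higher and 1 lower at P15. A call required a change of at least 2-fold and, in edgeR's quasi-likelihood test, an adjusted p below 0.01. Among all genes tested, 22.3% were called at P5 and 23.2% at P15. By direction, 13.5% were called higher and 8.85% lower at P5, and 12.2% and 11.0% at P15. As the members were selected with their levels in all 9 libraries known, nothing is read from their number. All 10 members had enough counts to be tested in every comparison. *Mmp10*, with 13 and 6 counts in naïve P15 libraries, passed only through primed libraries at P15 and through P5 libraries between naïve passages. In these 2 comparisons it could hardly have been called in the other direction. With 2 libraries a group, the p-values rest on the spread between libraries of a group, which edgeR's fit pools in part over all genes. That spread was small, with a common coefficient of variation beyond counting error of 3.26% at P5 and 4.79% at P15. The p-values cover no other variation, and the labels do not say whether the libraries came from separate cultures.

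**Figure D1:**
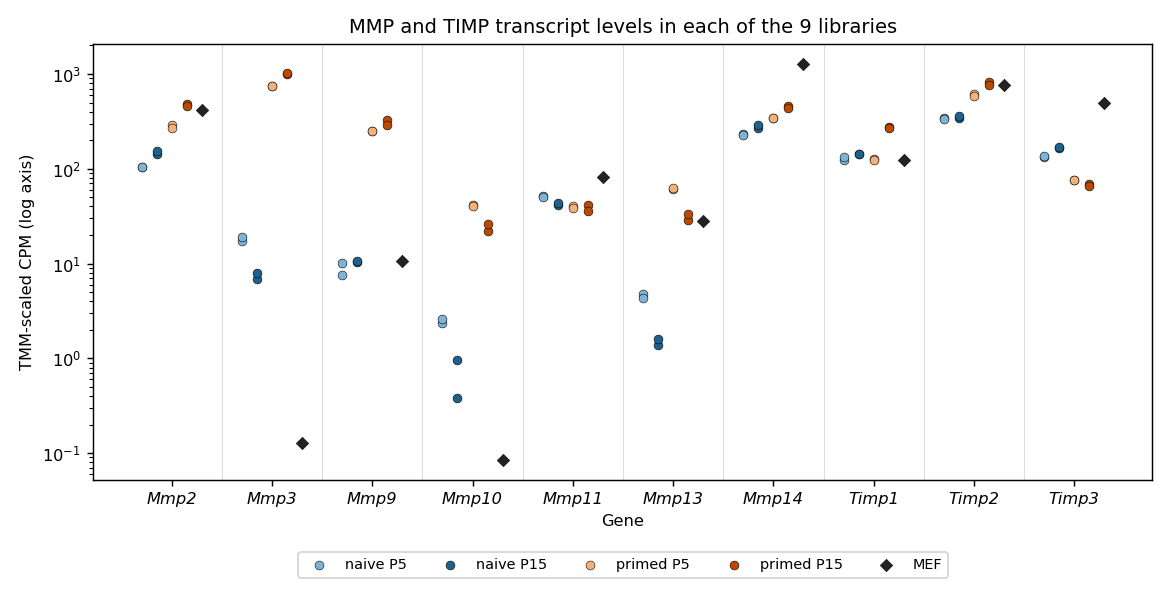
TMM-scaled CPM of the 10 genes (log axis) in each of the 9 libraries, 1 point per library, with naïve libraries in blue, primed in orange and the MEF library as a black diamond. *Mmp3* lies between 741 and 1015 CPM in primed libraries and at 0.128 CPM in MEFs, while *Mmp14* and *Timp3* are highest in MEFs.

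*Mmp3* (ENSMUSG00000043613, chr9:7445822-7455975, + strand of GRCm38) encodes a stromelysin, which cleaves many matrix proteins and can activate other proenzymes of the family. Its level was 17.5 and 19.2 CPM in naïve cells and 746.8 and 741.4 CPM in primed cells at P5. At P15 it was 6.92 and 7.99 CPM in naïve and 999 and 1015 CPM in primed cells. The primed libraries stood apart from the naïve ones at both passages, and naïve P5 libraries lay above naïve P15 libraries. The fold between primed and naïve cells was 41.4 at P5 (log2 fold change 5.37, SE 0.048, edgeR's quasi-likelihood test, adjusted p = 3.08e-35) and 133 at P15 (7.06, SE 0.084, adjusted p = 9.69e-39).

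*Mmp10* (ENSMUSG00000047562, chr9:7502352-7510240, + strand) encodes the related second stromelysin. Naïve cells had 2.39 and 2.57 CPM at P5, from 48 and 52 counts, and primed cells had 41.0 and 40.8 CPM. At P15 naïve cells had 0.958 and 0.384 CPM, from 13 and 6 counts, and primed cells had 22.3 and 26.2 CPM. The groups did not overlap, and the naïve P15 libraries were the least precise. The ratio of primed to naïve levels was 16.5 at P5 (95% exact counting interval 13.5 to 20.4) and 37.3 at P15 (23.7 to 62.3). On the fitted log2 scale the changes were 4.07 (SE 0.12) and 5.19 (SE 0.23). The P15 value was 5.92 without the first naïve P15 library and 4.61 without the second.

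*Mmp3* and *Mmp10* are close paralogs, and 8.37% of the 50-base stretches of *Mmp10* transcripts also occurred in *Mmp3*. How the authors counted reads with several alignments is not given in the sources used here, so a part of the *Mmp10* counts may come from *Mmp3*. The *Mmp10* count was 13.6% and 13.4% of that of *Mmp3* in naïve P5 libraries and 5.49% and 5.50% in primed P5 libraries. It was 13.8% and 4.8% in naïve P15 libraries and 2.23% and 2.59% in primed P15 libraries.

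*Mmp13* (ENSMUSG00000050578, chr9:7272514-7283331, + strand) encodes a collagenase that cleaves fibrillar collagens. It had 4.77 and 4.35 CPM in naïve and 60.9 and 62.8 CPM in primed cells at P5. At P15 it had 1.40 and 1.60 CPM in naïve and 29.0 and 33.2 CPM in primed cells. Both states were lower at P15, and primed libraries lay above naïve ones throughout. It rose 13.8-fold with priming at P5 (log2 fold change 3.79, SE 0.094) and 20.4-fold at P15 (4.35, SE 0.18).

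The gelatinases *Mmp9* and *Mmp2* degrade denatured collagen and basement membrane collagen. *Mmp9* (ENSMUSG00000017737, chr2:164940780-164955850, + strand) had 7.56 and 10.1 CPM in naïve and 252 and 250.9 CPM in primed cells at P5. At P15 it had 10.3 and 10.6 CPM in naïve and 328.6 and 287.3 CPM in primed cells. Primed levels of *Mmp9* lay far above naïve ones, and its fold was 29.1 at P5 (log2 fold change 4.86, SE 0.067) and 29.2 at P15 (4.87, SE 0.089). *Mmp2* (ENSMUSG00000031740, chr8:92827291-92853420, + strand) was already abundant in naïve cells, with 104.1 and 105.5 CPM at P5 and 142.6 and 154.4 CPM at P15. Primed cells had 288.4 and 270.3 CPM of *Mmp2* at P5 and 484.5 and 462.5 CPM at P15. This was 2.73-fold higher than in naïve cells at P5 (log2 fold change 1.45, SE 0.041) and 3.16-fold at P15 (1.66, SE 0.06).

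*Mmp14* (ENSMUSG00000000957, chr14:54431612-54445364, + strand), the membrane-anchored activator of pro-MMP2, had 232.3 and 227.8 CPM in naïve and 346 and 345.2 CPM in primed cells at P5. At P15 it had 272.5 and 287.2 CPM in naïve and 463.5 and 437.8 CPM in primed cells. The groups did not overlap, yet the fold stayed under 2, at 1.54 at P5 (edgeR's quasi-likelihood test, adjusted p = 1.36e-15) and 1.60 at P15 (adjusted p = 6.58e-13). *Mmp11* (ENSMUSG00000000901, chr10:75923222-75936496, - strand), a stromelysin that furin activates inside the cell, was the MMP with the smallest difference. Its levels were 51.2 and 50.4 CPM in naïve and 40.1 and 38.8 CPM in primed cells at P5. At P15 the 41.0 and 43.1 CPM of naïve cells overlapped the 41.4 and 35.9 CPM of primed cells. Its log2 fold change was -0.33 (SE 0.062) at P5 and -0.14 (SE 0.088, adjusted p = 0.177) at P15. Exons of *Mmp11* overlap those of the antisense gene *Chchd10* over 155 bases, or 5.58% of their length. *Chchd10* had up to 3669 counts in a library, more than *Mmp11* in any library, and the strand setting of the counting is not given in the sources used here.

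The 3 inhibitors differed in direction. *Timp1* (ENSMUSG00000001131, chrX:20870166-20874735, + strand), a secreted inhibitor that is a weak partner of MMP14, had 124.4 and 133.5 CPM in naïve and 127.3 and 123.9 CPM in primed cells at P5. At P15 it had 141.6 and 143.4 CPM in naïve and 274.4 and 268.6 CPM in primed cells. At P5 the states overlapped, with a log2 fold change of -0.006 (SE 0.044, edgeR's quasi-likelihood test, adjusted p = 0.918). The sign of this value turned with library size alone as the scaling and without either library of number 2. At P15 the fold was 1.89 (log2 fold change 0.92, SE 0.059, adjusted p = 3.74e-16), just under the 2-fold limit.

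*Timp2* (ENSMUSG00000017466, chr11:118301069-118355740, - strand), the inhibitor that takes part in pro-MMP2 activation, had 342.8 and 337.1 CPM in naïve and 611.2 and 592.8 CPM in primed cells at P5. At P15 it had 343.7 and 364 CPM in naïve and 816.2 and 774.4 CPM in primed cells. Its fold was 1.81 at P5 (SE of the log2 value 0.034) and 2.23 at P15 (SE 0.056), so that it was called at P15 alone. *Timp3* (ENSMUSG00000020044, chr10:86300372-86349506, + strand) encodes a matrix-bound inhibitor that also acts on ADAM proteases. It had 133.4 and 137.5 CPM in naïve and 76.7 and 76.0 CPM in primed cells at P5. At P15 it had 167 and 171 CPM in naïve and 68.4 and 65.7 CPM in primed cells. *Timp3* was the single member with a called decrease, 2.54-fold lower at P15 (log2 fold change -1.34, SE 0.065, adjusted p = 7.34e-20), after a 1.73-fold difference at P5 (adjusted p = 1.2e-15). Exons of *Timp3* overlap the antisense gene *Syn3* over 21.3% of their length, and *Syn3* had at most 17 counts in a library.

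**Figure D2:**
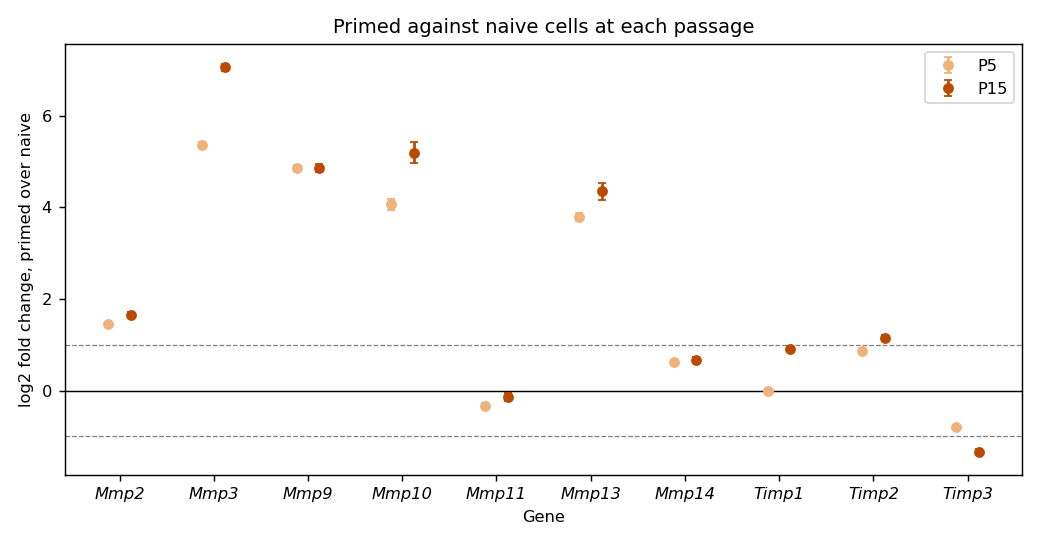
Fitted log2 fold changes of primed over naïve cells at P5 and at P15, with bars of 1 SE from edgeR's fit and dashed lines at a 2-fold change. *Mmp3*, *Mmp9*, *Mmp10* and *Mmp13* lie at 3.79 or above at both passages, and *Timp3* is the lowest at both.

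Markers of other cell types moved between the same groups. The summed level of 26 fibroblast markers was 7845 to 7882 CPM in naïve and 5065 to 5159 CPM in primed cells at P5, and 13725 to 14338 CPM and 13081 to 13544 CPM at P15, against 76442 CPM in MEFs. All 26 had counts in every library, and none of the 8 defining fibroblast markers was at 0. At P5, 3 of the 26 were called higher and 7 lower in primed cells, and at P15 6 were called higher and 3 lower. *Dcn*, the matrix proteoglycan decorin, had the largest fibroblast marker change, 11.8-fold higher in primed cells at P5 and 37.6-fold at P15. Of 8 endoderm markers, 6 could be tested and all 6 were called higher in primed cells at both passages. Over all genes 13.5% and 12.2% were called higher. *Sox17* was among the 6, at 53.3-fold and 35.8-fold. Its naïve means were 0.546 and 0.435 CPM, too low to be tested between naïve passages. It therefore needed primed libraries to be tested and could hardly have been called lower. The same limit can hold for others of the 6, so nothing is read from their number. The sum of the 8 endoderm markers was 41.1 to 53.8 CPM in naïve and 221.7 to 255 CPM in primed cells, with *Afp* or *Ttr* at 0 in 7 of the 8 libraries. In MEFs this sum was 217.8 CPM, close to the primed level. Of 8 macrophage markers the sum was 12.5 to 13.7 CPM in naïve and 16.7 to 32.1 CPM in primed cells. *Adgre1*, *Tyrobp*, *Fcer1g* or *Ptprc* was at 0 in 5 of these 8 libraries. In MEFs the macrophage sum was 89.8 CPM, above all naïve and primed libraries. The sum of 8 pluripotency markers was 3520 to 3645 CPM in naïve cells, 1440 to 1455 CPM in primed P5 cells, 2338 to 2343 CPM in primed P15 cells and 2.93 CPM in MEFs. *Fgf5*, a marker of primed cells, was 120.4 and 120.6 CPM in primed and 1.44 and 1.63 CPM in naïve cells at P5. The part of these other cells in the MMP and TIMP levels was not tested, and in these bulk libraries fewer cells of a type cannot be told apart from less RNA per cell.

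The MEF library set apart 2 kinds of member. *Mmp14*, at 1281 CPM, and *Timp3*, at 488.7 CPM, were at least 2-fold higher in MEFs than in every naïve and primed library, as were 7.59% of 17180 genes. *Mmp3* and *Mmp10* were at least 2-fold lower in MEFs than in every other library, as were 11.3% of genes. These counts of 2 and 2 belong to the comparison that chose the members, and nothing is read from them. The MEF library held 3 counts of *Mmp3* and 2 of *Mmp10*.

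Primed cells had 5832 times the MEF level of *Mmp3* at P5 (95% exact counting interval 1996 to 28289) and 7891 times at P15 (2700 to 38267). Naïve cells had 144 times (49.1 to 700.1) and 58.5 times (19.8 to 287.1) the MEF level. For *Mmp10* the ratio to MEFs was 480.6 (132.9 to 3973) in primed P5 cells and 285.2 (78.7 to 2359) in primed P15 cells. In naïve cells it was 29.2 (7.86 to 244.1) at P5 and 7.88 (1.84 to 67.7) at P15. These ratios describe the levels that chose the members, and their intervals cover counting error only, since MEFs had 1 library.

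*Mmp9* had 10.6 CPM in MEFs, which was close to the naïve levels, at 1.20 and 1.01 times the naïve P5 and P15 means. Primed cells had 23.8 times (20.94 to 27.04) and 29.1 times (25.63 to 33.09) that level. *Mmp13* had 28.4 CPM in MEFs, 6.22 and 18.9 times the naïve means. Primed cells had 2.18 times (1.996 to 2.374) the MEF level of *Mmp13* at P5, and 1.09 times (0.993 to 1.21) at P15. For *Mmp13* in primed P15 cells the counting interval of that ratio therefore held 1.

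*Mmp2* had 411.9 CPM in MEFs, between the primed P5 and primed P15 libraries, and the naïve means were 25.4% and 36.0% of it. *Timp2* had 765.3 CPM in MEFs, against which primed cells had 78.7% at P5 and 103.9% at P15. *Timp1* had 123 CPM in MEFs, below all 8 other libraries, of which the lowest had 123.9 CPM and the highest 274.4 CPM. Primed P5 cells had 1.02 times the MEF level of *Timp1* (95% exact counting interval 0.976 to 1.07), and this interval held 1. *Mmp11* had 82.6 CPM in MEFs, 1.61 times the highest of the other libraries. *Mmp14* reached 18.0% of its MEF level in naïve P5, 26.98% in primed P5, 21.8% in naïve P15 and 35.2% in primed P15 cells. *Timp3* reached 27.7% and 34.6% in naïve cells at P5 and P15 but 15.6% and 13.7% in primed cells.

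**Figure D3:**
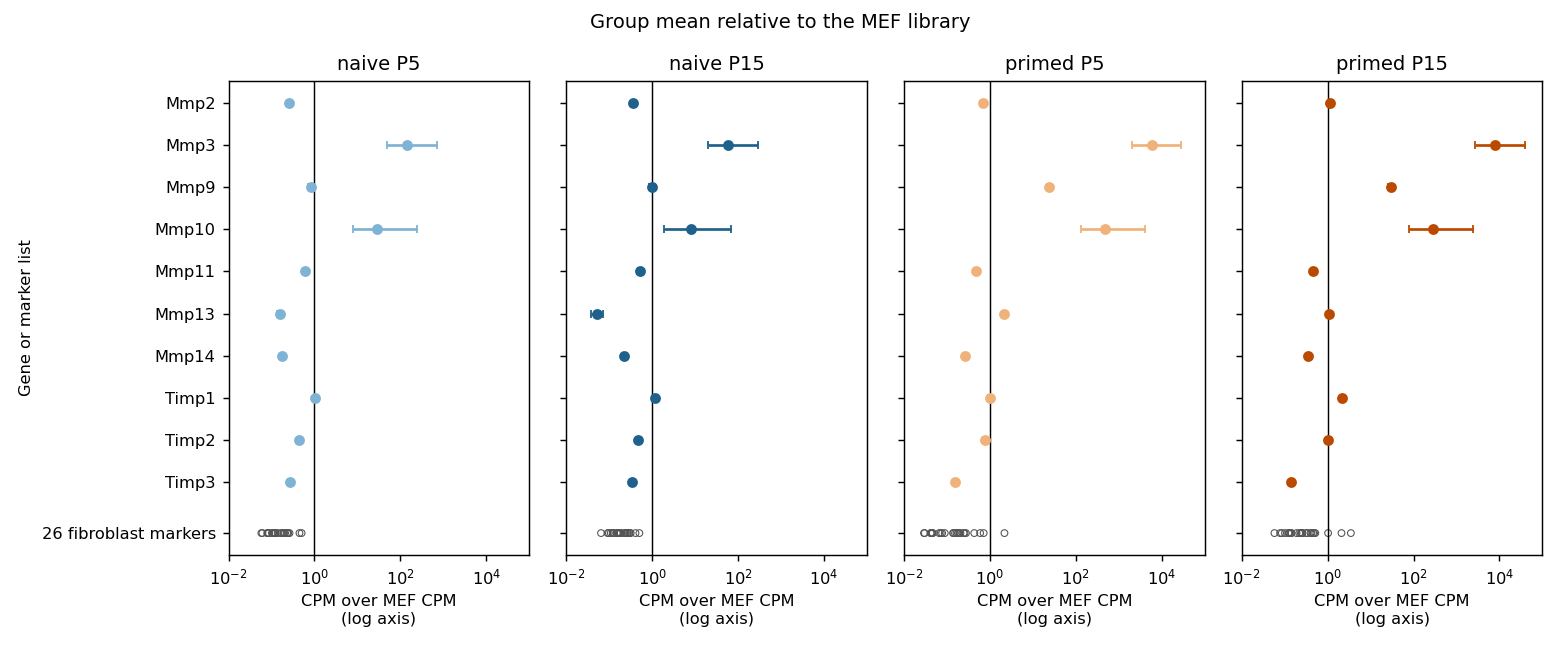
Mean CPM of each group over the CPM of the MEF library (log axis), 1 panel per group, with 95% exact counting intervals for the 10 genes and open circles for the 26 fibroblast markers. *Mmp3*, *Mmp9* and *Mmp10* in primed cells lie at 23.8 or above, while the highest fibroblast marker, *Dcn*, lies at 2.18 at P5 and 3.47 at P15.

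Single fibroblast markers give the scale of these ratios. In naïve P5 cells the 26 markers lay between 0.0582 and 0.503 times their MEF level, and in naïve P15 cells between 0.0646 and 0.504. None exceeded MEFs there. In primed P5 cells they ran from 0.0292 for *Col1a1* to 2.18 for *Dcn*, with 1 above MEFs. In primed P15 cells they ran from 0.0577 for *Fap* to 3.47 for *Dcn*, with 3 above MEFs.

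*Mmp11*, also highest in MEFs, reached 61.5% and 50.9% in naïve cells and 47.8% and 46.8% in primed cells. Of these 3 members, *Mmp14* was thus nearer to its MEF level in primed than in naïve cells, and *Timp3* was farther from it. *Mmp11* was farther from its MEF level in primed cells at P5, while at P15 its naïve and primed libraries overlapped. The summed fibroblast markers, given above, were lower in primed than in naïve libraries at both passages. The median of the 26 markers went the other way, from 12.2% and 12.4% of the MEF level in naïve to 14.2% and 13.8% in primed libraries at P5, and from 17.4% in both naïve to 25.2% and 25.4% in primed libraries at P15. The part of feeder RNA in these levels was not tested.

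Levels of different genes were compared per kb of annotated exon. In naïve cells *Timp1* was the highest member, at 145.2 CPM per kb (SD 7.27, n = 2) at P5 and 160.4 CPM per kb (SD 1.45, n = 2) at P15. *Timp2* followed at 87.3 and 90.8 CPM per kb, and *Mmp14* and *Mmp2* were the leading MMPs. In primed cells *Mmp3* was first, at 413.2 CPM per kb (SD 2.13, n = 2) at P5 and 559 CPM per kb (SD 6.12, n = 2) at P15. *Timp2* and *Timp1* came next at P5, with 154.5 and 141.4 CPM per kb, and in the other order at P15, with 305.7 for *Timp1* and 204.1 for *Timp2*. In MEFs *Mmp14* was first, at 215 CPM per kb, ahead of *Timp2* at 196.4 CPM per kb.

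Most neighbours in these orders were separated by more than the range of their libraries. The exceptions were *Mmp14* and *Mmp2* in naïve P15 cells, at 46.9 and 44.0 CPM per kb, *Mmp13* and *Mmp10* in the same cells, at 0.561 and 0.389 CPM per kb, and *Mmp10* and *Mmp11* in primed P15 cells, at 14.1 and 13.9 CPM per kb. The lowest members were *Timp3* in primed cells and *Mmp10* in naïve P5 cells. In MEFs *Mmp10* and *Mmp3* were lowest, and their order rests on 2 against 3 counts.

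Summed per kb, the 7 MMPs had 0.411 to 0.427 times the level of the 3 TIMPs in the 4 naïve libraries. The ratio was 2.23 and 2.27 in primed P5 libraries, 1.72 and 1.76 in primed P15 libraries and 0.964 in MEFs. Naïve and primed libraries did not overlap, and the primed ratio was higher at P5 than at P15 in every library. *Mmp3* made up 60.0% to 62.9% of the MMP sum in primed libraries, 3.47% to 10.2% in naïve libraries and 0.0186% in MEFs. These sums are of RNA per length and do not measure enzyme or inhibitor protein.

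**Figure D4:**
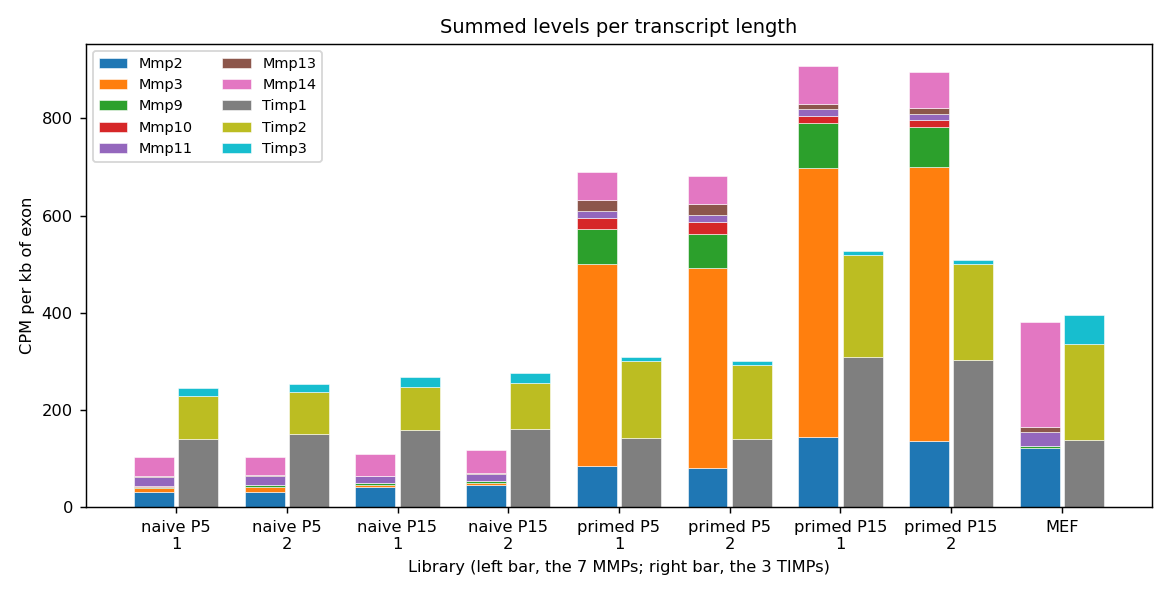
Stacked CPM per kb of exon in each library, with the 7 MMPs in the left bar and the 3 TIMPs in the right bar. The MMP bar is shorter than the TIMP bar in all 4 naïve libraries and taller in all 4 primed libraries, where *Mmp3* is its largest segment.

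Passage changed some members within a state. These comparisons share libraries with those between states and are set beside them without a further test. In naïve cells 0 members were called higher and 3 lower at P15 than at P5, where 1.13% of all genes were called, 0.414% higher and 0.721% lower. The 3 were the cluster genes, of which *Mmp10* had at least 10 counts in both libraries only at P5. *Mmp3* fell 2.45-fold (log2 fold change -1.29, SE 0.13, edgeR's quasi-likelihood test, adjusted p = 1.8e-05). *Mmp13* fell 3.02-fold (log2 fold change -1.59, SE 0.26, adjusted p = 0.00091). *Mmp10* fell by 1.91 on the log2 scale (SE 0.41, adjusted p = 0.00634) from the few counts given above, or by 2.67 without the first naïve P15 library. The *Mmp10* call was lost without the second naïve P5 library (adjusted p = 0.0121) and without the second naïve P15 library (log2 fold change -1.36, adjusted p = 0.0375). Between the same naïve groups the summed fibroblast markers were higher at P15, with 5 of the 26 called higher and 1 lower. Of 5 endoderm markers tested, 0 were called higher and 1 lower, with log2 fold changes from -1.56 to -0.16. Their part in these changes was not tested.

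In primed cells 1 member was called higher and 1 lower at P15 than at P5, against 3.18% and 8.43% of all genes, or 11.6% in either direction. *Timp1* rose 2.11-fold (log2 fold change 1.08, SE 0.051, adjusted p = 4.26e-16), and *Mmp13* fell 2.03-fold (log2 fold change -1.02, SE 0.075, adjusted p = 6.1e-12). Both lie close to the 2-fold limit. Without the first primed P15 library *Mmp13* had a log2 fold change of -0.93 and was no longer called, and with library size alone as the scaling *Timp1* had 0.95. Another 7 members had an adjusted p under 0.01 with less than a 2-fold change. Among these were *Mmp2* at 0.73, *Mmp3* at 0.40 and *Mmp10* at -0.79 on the log2 scale. The summed fibroblast markers were higher at P15 than at P5 in primed cells, with 13 of the 26 called higher and 0 lower, and their part in these changes was not tested.

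The difference between the P15 and P5 effects of priming was tested directly over the 8 naïve and primed libraries, where 7.16% of all genes were called, 2.36% higher and 4.80% lower. *Mmp3* was the single member called, with a difference of 1.70 on the log2 scale (SE 0.10, edgeR's quasi-likelihood test, adjusted p = 1.86e-14). *Timp1* at 0.94, *Timp2* at 0.32 and *Timp3* at -0.53 had an adjusted p under 0.01 with less than a 2-fold difference. *Mmp10* had a difference of 1.14 (SE 0.36, adjusted p = 0.0145), and it was called without the first naïve P15 library, at 1.89, or without the first primed P15 library, at 1.26. *Mmp9* had a difference of 0.02 (SE 0.14, adjusted p = 0.939). In the same test 8 of the 26 fibroblast markers were called higher and 0 lower, and their part in these differences was not tested. The labels name no batch, and a technical difference between passages cannot be told apart from passage.

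The cluster on chromosome 9 holds 10 MMP genes over 427.1 kb (chr9:7272514-7699585), of which *Mmp13*, *Mmp3* and *Mmp10* are members. The other 7 had at most 220 counts in a library. *Mmp12*, which encodes the macrophage elastase, had 1 to 3 counts in each naïve library, 208 and 173 counts in primed P5 libraries and 220 and 218 counts in primed P15 libraries. This was 134.2 times the naïve level at P5 (95% exact counting interval 45.6 to 653.7) and 91.3 times at P15 (35.4 to 336.6). MEFs had 7 counts of *Mmp12*. *Mmp1a*, annotated as a polymorphic pseudogene, had 0 counts in all 4 naïve libraries and in MEFs. It had 5 and 11 counts in primed P5 and 22 and 30 counts in primed P15 libraries, at least 2.88-fold and 7.19-fold above a floor of 3 counts per library. *Mmp1b* had 0 to 2 counts in the naïve and primed P5 libraries and 15 and 17 in primed P15 libraries. *Mmp7*, *Mmp8*, *Mmp20* and *Mmp27* had at most 5 counts in any library.

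**Figure D5:**
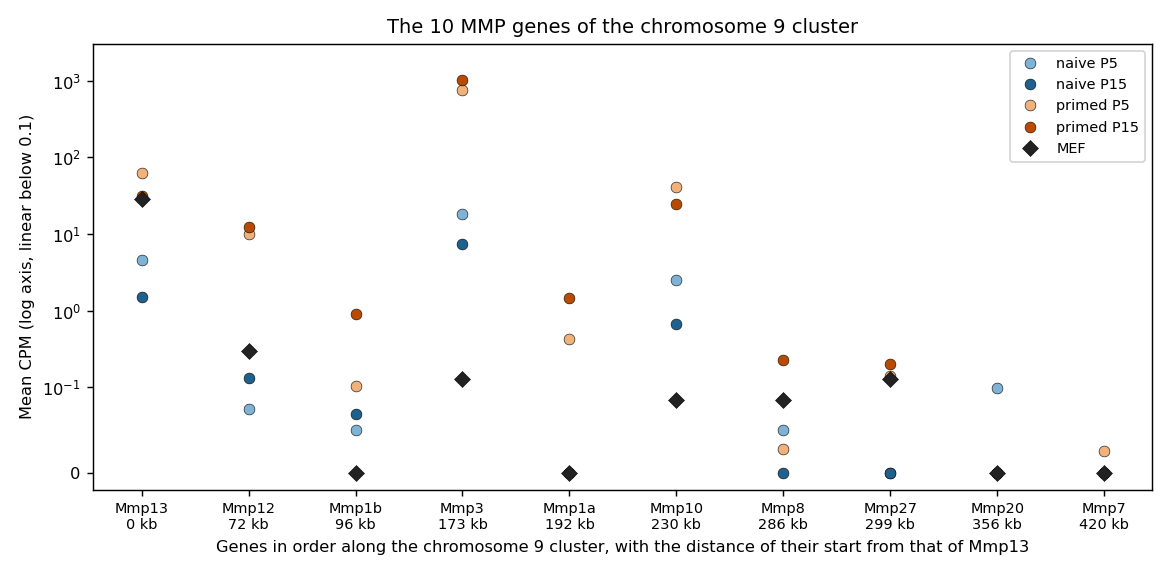
Mean CPM of the 10 MMP genes in their order along the chromosome 9 cluster (log axis, linear below 0.1), with the distance of each gene's start from that of *Mmp13*; groups at 0 lie on top of each other. *Mmp3*, 173.3 kb from *Mmp13*, is the most abundant in primed cells, and the 4 genes beyond *Mmp10* stay below 0.3 CPM.

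Of the 18 MMP, TIMP and related genes that are not members, 11 could be tested at P5, with 4 called higher and 1 lower. At P15, 12 could be tested, with 7 called higher and 1 lower. Over all genes 22.3% were called at P5 and 23.2% at P15. *Mmp12* and *Timp4* at both passages, and *Mmp1a* and *Mmp1b* at P15, had 10 or more counts only in primed libraries. *Mmp24* at P5 had them only in naïve libraries. Such genes could be called in 1 direction alone, so nothing is read from the numbers called. The median log2 fold change of the tested genes that are not members was 0.42 at P5 and 1.10 at P15. It was 1.15 and 1.41 for the members and 0.008 and -0.004 for all genes. The medians of the family include genes with enough counts in 1 state alone. Members and family list were chosen with earlier results of these data known, so nothing is read from these medians. *Timp4*, the remaining TIMP, had 0 to 2 counts in naïve libraries, 41 and 37 counts in primed P5 and 121 and 120 counts in primed P15 libraries. Its ratio of primed to naïve levels was 27.5 (95% exact counting interval 9.06 to 136.1) at P5 and 201 (35.7 to 7971) at P15. *Mmp25*, a membrane-anchored MMP known from leukocytes, rose 3.45-fold at P5 and 4.88-fold at P15, and it had 5 counts in MEFs. *Mmp15*, another membrane-type MMP, rose 2.67-fold at P5 and had a fold of 1.91 at P15. The secreted *Mmp19* stood at -0.25 on the log2 scale at P5 and rose 2.17-fold at P15, and the difference of these effects was called (1.39 on the log2 scale, SE 0.12, edgeR's quasi-likelihood test, adjusted p = 1.45e-10). *Mmp16* was called at P15, 2.11-fold higher.

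*Mmp17* was 1.98-fold lower at P5, under the limit, and fell 2.80-fold at P15. *Mmp24* fell 4.27-fold at P5, from 27 and 20 counts to 6 and 4. *Mmp23*, *Mmp28* and *Reck*, which encodes a membrane-anchored MMP inhibitor, were called at neither passage, with log2 fold changes from 0.05 to 0.75. Too few counts were present in *Mmp21*, with at most 5 counts in a library.

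Genes that act around the MMPs were taken from 4 lists, whose counts stand beside the 22.3% of all genes called at P5 and 23.2% at P15. Of 16 genes of MMP activation and the plasmin cascade, 14 were tested, and 5 were called higher and 2 lower in primed cells at each passage. *Serpine2*, a serpin of thrombin and plasminogen activators, rose 2.24-fold and 2.48-fold. *Furin*, which activates *Mmp11* and *Mmp14* proenzymes, was 1.98-fold higher at P5 and rose 2.21-fold at P15. The list's median log2 fold change was 0.51 at P5 and 0.46 at P15.

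Of 19 ADAM and ADAMTS proteases, 6 were called higher and 3 lower at P5, and 4 higher and 3 lower at P15, with medians of 0.22 and 0.21. *Adamts9*, a proteoglycan-cleaving protease, rose 2.39-fold and 4.28-fold. *Adam23*, which lacks protease activity, fell 2.46-fold and 3.10-fold. The aggrecanase *Adamts5* fell 2.55-fold at P5 and was 1.97-fold lower at P15, under the limit.

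Of 9 AP-1 factors, 0 were called higher and 6 lower at P5, and 0 higher and 3 lower at P15, with medians of -1.76 and -0.34. *Fosb* had 1297 CPM in naïve and 3.20 CPM in primed cells at P5, and 645.3 and 106.8 CPM at P15. *Fos* had 859.6 and 14.2 CPM at P5 and 516.2 and 246.2 CPM at P15. *Jun* fell 3.39-fold at P5 and had a log2 fold change of 0.07 (adjusted p = 0.247) at P15. In MEFs they had 8.55, 53.9 and 136.2 CPM in the order given. No binding to a promoter was measured.

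Of 16 matrix substrates, 2 were called higher and 3 lower at P5 and 2 higher and 2 lower at P15, close to the share over all genes, with medians of -0.20 and -0.59. *Spp1*, the secreted phosphoprotein osteopontin, rose 3.05-fold and 4.89-fold, to 3066 and 4471 CPM. *Col2a1*, a fibrillar collagen of cartilage, rose 12.4-fold at P5 and 2.51-fold at P15. *Col1a1*, the collagen that also stands in the fibroblast list, fell 2.69-fold at P5 and was 1.64-fold lower at P15, with 26126 CPM in MEFs.

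For each member, the gene of most similar level over the 9 libraries was sought by Pearson's r of log2(CPM + 1) among 10068 genes with a mean of at least 10 CPM. For *Mmp3* this was the class I gene *H2-Q7* (r = 0.997), and for *Mmp9* it was *Fgf5* (r = 0.999). The others were *Rfx3* for *Mmp10*, *Smad3* for *Mmp13*, *Tspan3* for *Mmp2*, *Mxd4* for *Mmp14*, *Colgalt1* for *Mmp11*, *Idi1* for *Timp1*, *Pex2* for *Timp2* and *Esyt1* for *Timp3*, with r from 0.981 to 0.999. *H2-Q7* had 4.08 and 5.20 CPM in naïve P5, 26.04 and 29.01 CPM in primed P5, 2.21 and 1.92 CPM in naïve P15, 34.5 and 32.0 CPM in primed P15 and 0.170 CPM in MEFs. The order of these levels over the 5 groups was that of *Mmp3*. As *H2-Q7* was chosen for its likeness to *Mmp3* in these libraries, this order is not a further observation. The 9 points share 5 groups, so r describes these libraries and carries no p.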

How the data were processed

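RNA-seq of 9 libraries was used. The deposited values are raw counts per Ensembl gene, which the authors made from poly(A) RNA with Cutadapt, HISAT2 (mm10, several alignments allowed per read) and featureCounts. Versions, the annotation release, and the strand and multiple-alignment settings of featureCounts are not given in the sources used here. Empty spike-in entries (92) were left out. Names and exon lengths came from GENCODE M21, and promoters from RefSeq.

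Contrasts were fitted in R 4.3.3 with edgeR 4.0.16 (quasi-likelihood test, TMM, at least 10 counts in at least 2 libraries, Benjamini-Hochberg over all genes tested). The SE is the log2 fold change over the root of F. Ratios to MEFs have 95% Clopper-Pearson intervals. The code was tested on simulated data. Alternatives were DESeq2 1.42.0, other scalings, no filter, 1 fit of 8 libraries, a replicate block and each library left out.

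Members and lists were chosen with earlier results of these data known. Genes named are the members, their nearest genes, the 3 most abundant called genes of each list and family genes that passed the filter, apart from 1 list gene that is not reported here. *Dcn*, *Sox17*, *Fap* and family genes below the filter were named after their values were seen.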

Additional observations from a re-analysis of the deposited data

Results flagged for a closer look

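The difference between the P15 and P5 effects of priming was tested for all 10 members, and that of *Mmp3*, 1.70 on the log2 scale, was called. Naïve *Mmp3* was 18.4 CPM at P5 and 7.46 CPM at P15, and primed *Mmp3* was 744.1 and 1007 CPM. Between passages it fell 2.45-fold in naïve cells, and in primed cells it was 1.32-fold higher at P15, under the 2-fold limit. The cause was not tested.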

How the results depend on the processing

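Of 550 values of single members under alternative settings, 529 kept direction and side of the threshold. Numbers of members or genes called were judged by closeness to the main number alone, and 116 of 121 were taken as unchanged. This rule was loose: 3053 genes called at P5 with DESeq2, against 3680 in the main fit, passed as unchanged. With library size alone, which moved the median log2 fold change of all genes to 0.21 at P5, 0.10 at P15, -0.13 between primed passages and -0.11 for the difference of effects, and the share of higher calls at P5 from 60.4% to 72.6%, 1 member rather than 2 was called between primed passages. *Timp1* at P5 then had 0.20 (adjusted p = 0.000459), *Timp2* at P5 1.06 and *Timp1* at P15 1.02, both then called, and the differences of effects of *Mmp9* and *Mmp14* were -0.095 and -0.041. Without 1 library each, the count between primed passages was 1 to 2 and that of the differences of effects 1 to 2. *Timp1* at P5 ran from -0.083 to 0.042, *Mmp11* between primed passages from -0.168 to 0.041, and the difference of *Mmp9* from -0.192 to 0.213. No low-count filter and DESeq2 left *Mmp10* between naïve passages uncalled (adjusted p = 0.0320 and 0.0131). At 4-fold, 0 members were higher in MEFs than in every other library. The cause of these shifts was not tested.

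Within each group, the log2 CPM of replicate 1 minus that of replicate 2 was taken for each of 11270 genes. Between the 2 groups of a comparison these differences correlated at -0.115 (P5), -0.132 (P15), 0.141 and 0.133 (naïve and primed passages). With 2 pairs, such values do not show that the numbers pair samples. With the replicate block 5, 7, 3, 2 and 1 members were called, as without it, and 3663, 3369, 229, 1923 and 1164 genes. With crossed pairs, added after seeing the data, 5 and 7 members and 3691 and 3647 genes were called at P5 and P15. A lone library left by an omission was assumed to vary like the others. Levels of 3 or fewer counts, as for *Mmp3* and *Mmp10* in MEFs, are limited by depth.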
